A study of Homo sapiens with 9 samples.

Results

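The transcriptome of control PC9 cells is described here from 3 of the 9 arrays of the series, the arrays whose titles name PC9, siControl and 96 h. PC9 is a human lung adenocarcinoma line with an activating deletion in EGFR, and siControl is a Silencer Select negative control siRNA, which the study calls siNC, given at 15 nM by lipid transfection 96 h before total RNA was taken. The cells were therefore transfected rather than untouched, and no untransfected PC9 sample was analysed here. The other 6 arrays hold knockdowns of the RNA demethylase ALKBH5 and were not used. Of the 24351 entries on each array, the 21448 whose identifiers mark a transcript cluster, the group of probes that stands for a gene, were the members, and 17709 of them carried 1 gene symbol and stood for 17687 genes. The labels name the 3 samples biological replicates but do not state whether they came from separate cultures, so an SD covers only the spread between these samples.

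A lung adenocarcinoma arises from the epithelium of the distal lung, whose alveolar type II cells make surfactant under the control of the transcription factor NKX2-1 and whose thin alveolar type I cells line the air space. Mutated EGFR, a receptor tyrosine kinase, sends a growth signal through the RAS-ERK and PI3K-AKT pathways without needing its ligand. Cell lines derived from such tumours often keep general epithelial genes while losing part of the specialised lung programme.

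Genes are placed below by their intensity, by their percentile among the 21448 clusters of an array (the percentile of the mean log2 intensity unless a range is given) and by a reference level. Probes differ in how strongly they respond to the same amount of RNA, so the order of signals is an order on the array and not an order of mRNA copies. No detection call was used, and a gene is described as above the reference where its cluster exceeded the 95th percentile of the 349 olfactory receptor genes, which serve smell in the nasal epithelium, on each of the 3 arrays. That limit was an intensity of 47.6, 43.8 and 50.2 on replicates 1, 2 and 3, at the 38.7th, 37.4th and 39.7th percentile. The median intensity of a cluster was 103, 104 and 104, and Pearson's r of log2 intensities across clusters was 0.994 to 0.995 between arrays. Between 109 and 115 clusters per array exceeded 65535, the largest value a 16-bit scanner writes, so the deposited scale had been changed in a way that is not stated, and distances between bright genes may be stretched.

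Of the 17687 genes, 10802 (61.1%) were above the reference on all 3 arrays, 5898 (33.3%) on none and 987 (5.58%) on 1 or 2 arrays. The counts of list members below are to be read beside that 61.1%. Counts in the brightest 10% of clusters are to be read beside the 10.4% of all genes that lay there. All 30 housekeeping genes were above it, with a median at the 97.6th percentile against 53.0 for all genes. Among 48 measured genes whose use is restricted to other organs, 10 were above it and the median lay at the 23.5th percentile. The brightest of these 10 were MB, the oxygen store of muscle, at an intensity of 280, and LHB, a pituitary hormone subunit, at 252, and the lowest of the 10 was PDE6B, a photoreceptor enzyme, at 53.6. Signals of this size were therefore seen from genes that lung epithelium is not known to use, and values just above the reference are given below as values only.

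**Figure D1:**
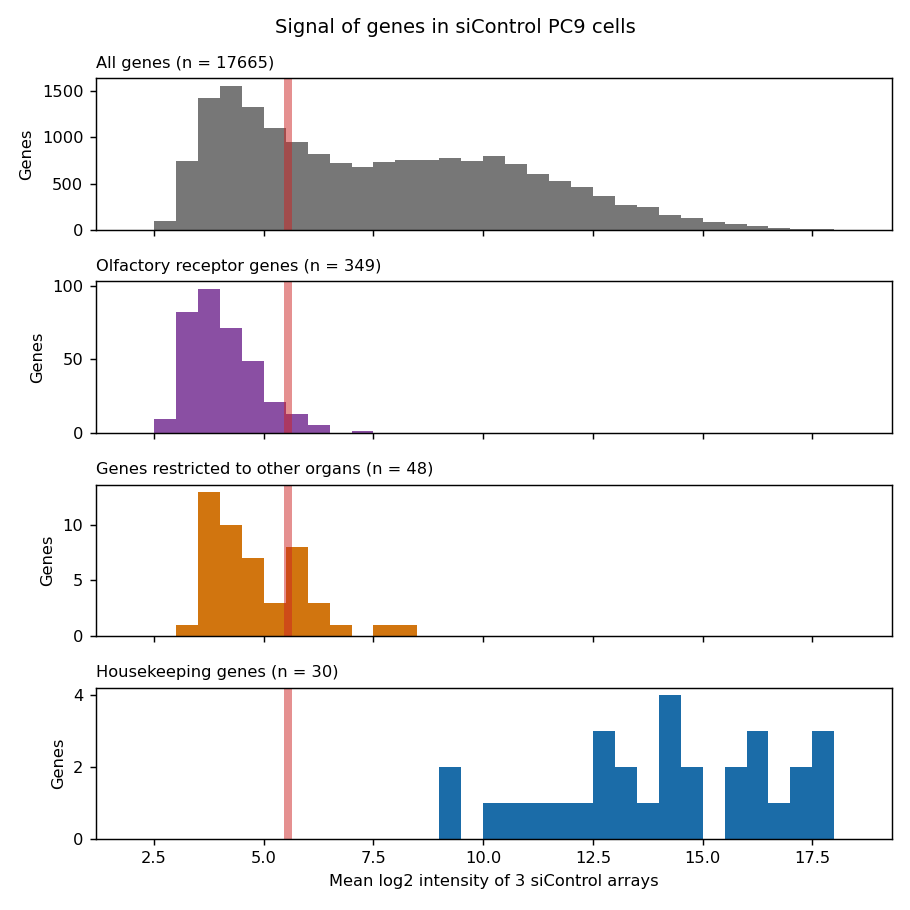
Number of genes (vertical axes) by mean log2 intensity of the 3 siControl arrays (horizontal axis) for 17665 genes (sex-linked marker genes were left out), the 349 olfactory receptor genes, the 48 measured genes restricted to other organs and the 30 housekeeping genes; the red band spans the reference limits of the arrays. The limits were set from the olfactory genes, so most of these lie to the left of the band by construction. The housekeeping genes lie wholly to its right.

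The brightest named gene was TUBA1B, an alpha-tubulin of microtubules, with intensities of 241646, 246923 and 233438. GAPDH, the glycolytic dehydrogenase, followed with 227330, 244965 and 227497, and ANXA2, a calcium-dependent membrane-binding annexin, with 210005, 213855 and 223852. The order of these 3 was nearly fixed between arrays, since TUBA1B held ranks 3 to 5 among all clusters, GAPDH 5 to 6 and ANXA2 7 to 12. The list of the 30 brightest went on with the translation factors EEF1A1 and EIF5A, the prolyl isomerase PPIA, the cytoskeletal actin ACTG1, the histone H2BC12 and ASPH, an aspartyl hydroxylase of the endoplasmic reticulum. It also held the glycolytic enzymes ALDOA, ENO1 and LDHA, the ribosomal proteins RPL38, RPS15A, RPL18, RPS10, RPL35 and RPS16, and the type II keratin KRT8. Other members of the 30 were S100A11, a calcium-binding protein, HSPB1, a small heat shock protein, MT2A, a metallothionein that binds zinc and copper, TMBIM6, an inhibitor of cell death in the endoplasmic reticulum, and AKR1C3, an aldo-keto reductase. Tubulins, actins, histones, metallothioneins and ribosomal proteins have close copies in the genome, and their clusters may read those copies too. Among the 30 brightest clusters of any kind, 11 carried a symbol, 19 did not, and 7 lay on the mitochondrial genome, which has 10 clusters in all.

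Bright and dim genes differed in the sequence just before a listed start. RefSeq (GRCh38.p14) gave 250 bases upstream of a start for 14250 of the 17687 genes. The first entry listed for a gene was used, which need not be its outermost or most used start. A promoter was counted as CpG-rich where the ratio of observed to expected CpG pairs was at least 0.6. With the genes put into 10 classes of equal size by signal (class 1 the dimmest, class 10 the brightest), 30.5% of promoters were CpG-rich in class 1, 48.6% in class 4, 78.0% in class 6 and 85.7% in class 10, against 64.5% of all promoters. The TATA box, searched as TATAAA on both strands, ran the other way, from 16.9% in class 1 to 3.84% in class 7, and stood at 6.76% in class 10 (8.99% of all). Most of these matches lay outside the usual place of a TATA box. Between 40 and 16 bases before the start, on the gene's strand, TATAAA was found in 7.29% of class 1. There it was found in 1.44% of class 7 and 2.78% of class 10 (3.62% of all). Genes above the reference and genes above it on no array also differed in the GC box GGGCGG (67.3% against 37.5%, with 57.0% of all) and in the ETS core CCGGAAG (16.3% against 3.64%, with 11.9% of all). CCAAT, which stands upstream of many housekeeping genes, was found at nearly the same share in both classes (35.6% and 33.1%), the E-box CACGTG, a site that MYC and its partners can bind, in 8.76% and 5.74%, and the AP-1 site TGANTCA in 3.85% and 7.42%. All motifs were searched on both strands, the GC box, ETS core and E-box hold a CG pair themselves, and a match is a description and not a shown binding site.

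3 promoters of genes described below are printed from RefSeq (GRCh38.p14) to show these classes: those of EGFR and GAPDH, which were bright, and that of the surfactant gene SFTPB, which was dim. Each run is the 250 bases before 1 start listed for the gene, 5′ to 3′ on the gene's own strand. Capitals mark the TATA box, the GC box or the CCAAT box on either strand. The GAPDH run lies inside the gene's RefSeq span, which begins at 6534517, and is not the sequence before the outermost start of that gene.
EGFR, chr7:55018767-55019016, plus strand: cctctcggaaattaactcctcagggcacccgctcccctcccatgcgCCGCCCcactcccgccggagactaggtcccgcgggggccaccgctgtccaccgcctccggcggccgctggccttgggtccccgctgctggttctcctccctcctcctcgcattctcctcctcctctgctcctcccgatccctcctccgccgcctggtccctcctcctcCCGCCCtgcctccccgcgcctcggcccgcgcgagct
GAPDH, chr12:6535014-6535263, plus strand: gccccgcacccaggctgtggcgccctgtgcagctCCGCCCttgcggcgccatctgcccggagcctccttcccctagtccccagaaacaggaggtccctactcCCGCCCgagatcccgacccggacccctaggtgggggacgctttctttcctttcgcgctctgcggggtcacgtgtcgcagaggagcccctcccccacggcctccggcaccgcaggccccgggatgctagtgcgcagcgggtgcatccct
SFTPB, chr2:85668742-85668991, minus strand: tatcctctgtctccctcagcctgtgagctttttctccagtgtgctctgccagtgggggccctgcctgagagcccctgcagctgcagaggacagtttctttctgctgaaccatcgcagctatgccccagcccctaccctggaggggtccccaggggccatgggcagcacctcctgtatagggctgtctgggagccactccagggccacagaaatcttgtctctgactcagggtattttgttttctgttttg
The EGFR run had 73.6% G or C, 25 CG pairs and a CpG ratio of 0.881, and both of its marked stretches were GC boxes. The GAPDH run resembled it, with 71.2% G or C, 22 CG pairs, a ratio of 0.718 and 2 GC boxes. In SFTPB there was 1 CG pair, a ratio of 0.0478, 58.0% G or C and none of the 3 motifs. The groups of genes did not all follow this order. CpG-rich promoters made up 97.6% of 42 ribosomal protein genes and 94.7% of 19 proliferation genes, against 1.43% of 280 olfactory receptor genes and 1 of 10 airway secretory genes. Among the brighter lists, however, epithelial genes (52.9% of 17), NRF2 targets and redox enzymes (56.0% of 25) and glycolysis enzymes (60.7% of 28) had smaller shares than all promoters, and among the dimmer ones ciliated cell markers (75% of 12) and receptor tyrosine kinases (71.4% of 49) had larger ones. The values given for background probes also changed with base composition, and not in 1 direction. Antigenomic probes, which match no human sequence, gave 254.88 to 257.13 with 3 G or C bases, 99.11 to 132.98 with 4 to 7, 23.78 to 32.01 with 8, 7.58 to 9.48 with 13 to 18, 82.97 to 109.89 with 19 to 24 and 22.96 to 23.18 with 25. Several of these values were the same to the last digit on all 3 arrays, such as 128.6 with 4 G or C bases and 82.97 with 19. They may therefore not be separate readings of each array. The part of probe composition in the promoter shares was not tested.

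**Figure D2:**
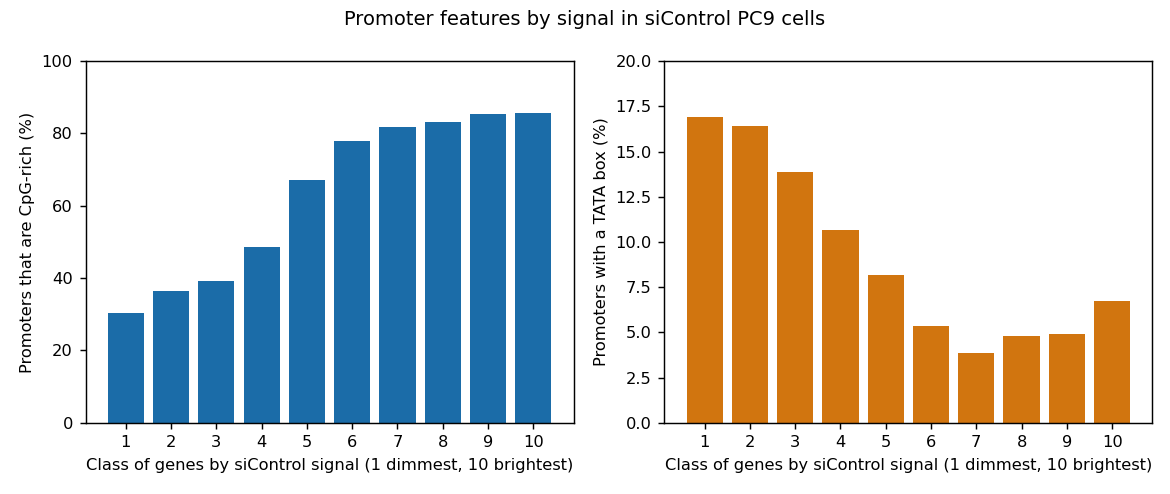
Share of promoters (vertical axes, percent of the 250-base upstream runs) that are CpG-rich (left) or hold TATAAA on either strand (right) in 10 classes of genes by siControl signal (horizontal axes, 1 dimmest, 10 brightest). The CpG-rich share climbs from 30.5% to 85.7%, and the TATA share falls from 16.9% to its lowest value of 3.84% in class 7.

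The identity of the line as epithelium was plain in the signals, whereas most of the specialised lung markers were not above the reference. All 25 measured epithelial genes were above it (18 in the brightest 10% of clusters, to which 10.4% of genes belong), with a median at the 94.0th percentile. EPCAM, a cell adhesion molecule of epithelia, had intensities of 52162, 52816 and 49359, and E-cadherin CDH1 had 8870, 8329 and 6063, lowest in replicate 3. The serine protease PRSS8 (mean 56863 ± 2877, SD, n = 3), the tight junction protein CLDN4 (47588 ± 3277) and the splicing regulator of epithelial isoforms ESRP1 (26597 ± 1434) were at the 98.2nd percentile or higher. The lowest 2 of the list were the mucin MUC1, with 284, 171 and 159, and the desmosomal plakophilin PKP3, with 164, 129 and 144.

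The keratins, the intermediate filaments of epithelia, divided by type. KRT8 gave 119291, 120455 and 119105, with an SD of 0.01 on the log2 scale. KRT19 (88798 ± 4356), KRT7 (70327 ± 721) and KRT18 (62610 ± 3059) also stood at the 99.4th percentile or above, while KRT80 stood at the 83.1st and KRT23, at 15.3, was not above the reference. These keratins of simple, one-layered epithelium had a median percentile of 99.5 over 6 genes. Of 10 measured keratins of stratified epithelium, 4 were above the reference: KRT16 (2449 ± 333), KRT13 (2234 ± 197), KRT5 (950 ± 124) and KRT4 (77.8). KRT14, the usual partner of KRT5 in basal cells, had 15.1, 17.2 and 15.5 and was below it on all 3 arrays.

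For a line labelled as lung adenocarcinoma, the defining alveolar markers were checked 1 by 1. NKX2-1 had intensities of 28.3, 50.7 and 33.0, above the reference on replicate 2 only. The surfactant proteins SFTPB (31.5, 25.8 and 28.7), SFTPC (18.3, 21.1 and 21.1) and SFTPA1 (15.8, 20.3 and 18.7), the aspartic protease NAPSA (12.6, 13.8 and 15.7), the lipid transporter ABCA3 and the phosphate transporter SLC34A2 were above it on no array. SFTPA2, with 48.3, 37.1 and 25.8, passed on replicate 1 only. Of the 15 measured type II markers 6 were above the reference, but they included SFTPD at 94.8 ± 17.8, the chemokine CXCL17 at 89.3 ± 4.46 and the protease PGC at 58.9 ± 9.44, all of which lay below the median percentile of all genes. The other 3 were brighter: ETV5, a transcription factor induced by ERK signalling (2904, 2941 and 3024), LAMP3, a lamellar body protein (665, 671 and 1021), and LPCAT1, an enzyme of surfactant lipid synthesis (464, 530 and 524). The share of the type II list above the reference was 40%, against 61.1% of all genes, and the list median lay at the 33.8th percentile.

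Type I markers were split, with 5 of 10 (50%) above the reference, against 61.1% of all genes. The membrane protein EMP2 (55642 ± 5435) and caveolin CAV1 (49219 ± 3342), both also used by many other cells, were at the 99.3rd and 99.2nd percentile, and CAV2 (2315 ± 156) was also far above the reference. The receptor AGER (38.6, 29.4 and 31.5) and the mucin-type protein PDPN (18.6, 12.3 and 14.1), which define the type more narrowly, were above it on no array, and the homeodomain protein HOPX on 1.

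The transcription factors of foregut and lung were split as well, with 10 of 21 (47.6%) above the reference, against 61.1% of all genes. The ETS factor EHF (12710, 12917 and 12307), GRHL2, a regulator of epithelial junctions (6539 ± 802), and KLF5 (4413 ± 103) were in the brightest 10%. In that 10% lay 10.4% of all genes. SOX9, a factor of lung bud tips (2718 ± 524), FOXA1 (1354 ± 69.5), ELF3 (594 ± 69.9) and GATA6 (180 ± 30.6) were above the reference too. FOXA2 (24.6 ± 5.14), CEBPA (25.5 ± 3.72), the gut factor CDX2 (26.7 ± 6.06) and the squamous and stem cell factor SOX2 (26.3 ± 7.45) were not above it on any array.

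Markers of the other airway lineages were mostly dim. Above the reference were 27.8% of airway secretory, 40% of ciliated, 41.7% of basal and squamous and 21.4% of neuroendocrine markers. Among all genes the share was 61.1%. Among 18 airway secretory genes 5 were above the reference, led by the iron-scavenging lipocalin LCN2 (7682, 7451 and 7433) and the protease inhibitor SLPI (2537 ± 277), followed by AGR2, a disulphide isomerase that folds mucins (552, 340 and 388), and the mucin MUC16 (210 ± 13.8). The club cell protein SCGB1A1 (11.2 ± 0.425) and the gel-forming mucin MUC5AC (20.4 ± 4.82) were above it on no array. Of 15 ciliated cell genes 6 were above, none in the brightest 10%, and FOXJ1, which drives the formation of motile cilia, was above on 1 array (37.4, 53.8 and 35.3). Of 12 basal and squamous markers 5 were above: TRIM29 (50995, 55537 and 55954), KRT16, the serpin SERPINB5 (1394 ± 217), KRT5 and the calcium-binding protein S100A2 (775 ± 28.7), whereas the desmoglein DSG3 stood at 11.6 ± 1.51. Of 14 neuroendocrine markers 3 were above. Among them UCHL1, a ubiquitin hydrolase abundant in neurons, was the 20th brightest of all named genes, with 106868, 111962 and 110325. The narrower neuroendocrine markers chromogranin CHGA (24.0 ± 3.29), synaptophysin SYP (22.4 ± 1.81) and the transcription factor INSM1 (23.2 ± 4.78) were above the reference on no array, so that UCHL1 stood alone among the bright members of its list.

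Mesenchymal genes lay close to all genes, with 16 of 25 (64%) above the reference against 61.1% of all genes. None was in the brightest 10%, to which 10.4% of genes belong, and the median lay at the 50.1st percentile against 53.0. COL6A1, a chain of collagen VI, had 3330, 4171 and 2861, and SPARC, a secreted matrix glycoprotein, 2759, 2783 and 2613. SNAI2, a repressor of epithelial genes, had 2067, 1870 and 1969, and the intermediate filament vimentin VIM 1328, 1245 and 1327. COL6A2 (792 ± 198) was above the reference while COL6A3 (8.44 ± 1.05), the third chain of the same collagen, was among the dimmest clusters. N-cadherin CDH2 (143, 246 and 269) and fibronectin FN1 (166, 227 and 253) were above the reference and lowest in replicate 1, whereas ZEB1 (14.7, 18.9 and 31.6) and ZEB2 (17.2, 13.9 and 16.8), repressors of CDH1, were not above it on any array.

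Markers of cells that a pure line should not hold were counted in the same way. Above the reference were 35.3% of immune, 18.2% of fibroblast and 30% of endothelial markers, against 61.1% of all genes. Of 17 immune cell markers 6 were above the reference, led by CD68 (3551 ± 171), a lysosomal protein of macrophages that other cells also use, and then by CD79A at 173 and the integrin ITGAM at 82.1. The pan-leukocyte PTPRC was above on 1 array (41.9, 57.6 and 43.4), and CD3E, CD14, CD4, CD8A and LYZ on none. Of 11 fibroblast markers 2 were above, COL1A2 (204) and DPT (64.6), and of 10 endothelial markers 3, ESAM (235), PECAM1 (160) and VWF (108), while the endothelial receptors KDR and TEK were at 9.93 and 10.7. The medians of these lists lay between the 32.6th and 37.7th percentile.

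**Figure D3:**
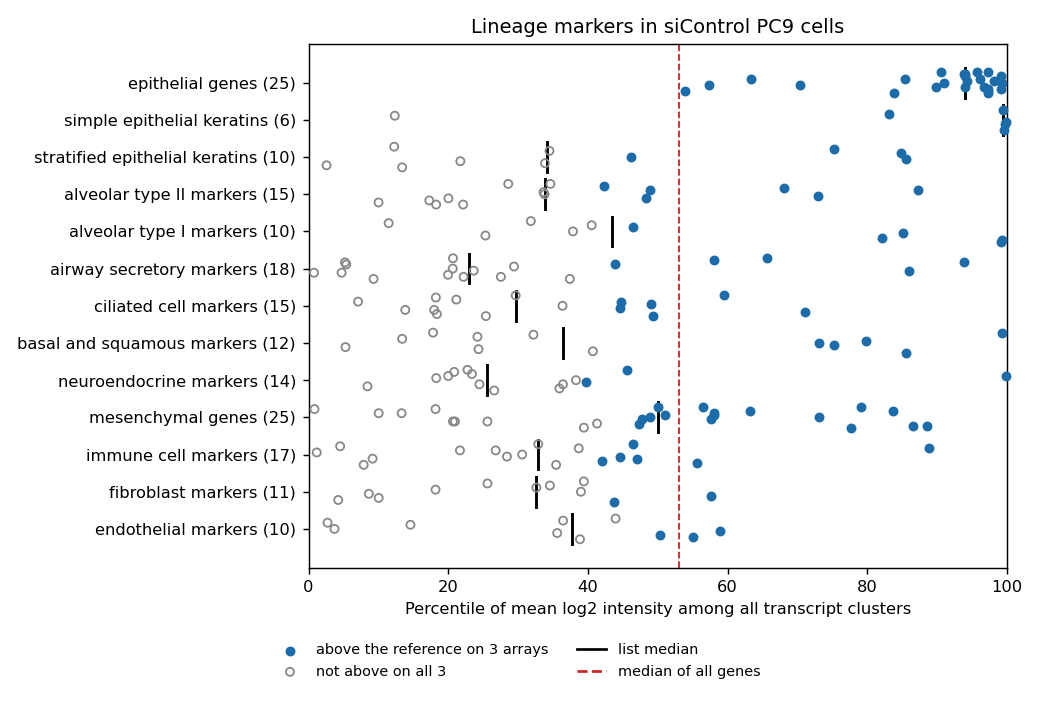
Percentile among all transcript clusters (horizontal axis) of each measured member of 13 lineage and cell type lists (rows, number of members in brackets). Filled points were above the olfactory reference on all 3 arrays, open points were not, black bars are list medians and the dashed line is the median of all genes at the 53.0th percentile; only the epithelial genes and simple keratins have medians to its right.

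EGFR itself was measured at 4011, 5154 and 4611 (mean 4592 ± 571, SD, n = 3), at the 90.7th percentile and lowest in replicate 1. In RefSeq the gene covers GRCh38 chromosome 7 from 55019017 to 55211628, and the array does not tell the mutated from the normal allele. Its relative ERBB3, which has little kinase activity of its own and signals as a partner, gave 4414, 4258 and 4230, and ERBB4 gave 88.0, 127 and 113, not far above the reference. Of the 4 ERBB receptors listed 3 were measured. ERBB2 had no cluster that carried its symbol alone, so its level is not known here. Of the 10 nearest named genes along the chromosome (5 on each side, looked up after the EGFR value was seen), the next at higher coordinates, LANCL2 (3627 ± 389) and VOPP1 (10813 ± 734), and further out MRPS17 (3996 ± 674) were bright. Between them SEPTIN14 (18.6 ± 2.91) and ZNF713 (43.9 ± 7.66) were not above the reference on all arrays. At lower coordinates COBL (1471 ± 222), FIGNL1 (1175 ± 309) and GRB10, an adaptor that binds receptor kinases (496 ± 58.7), were above it, and POM121L12 and DDC were not above it on all arrays. No copy number was measured here.

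Of 10 measured EGF family ligands 6 (60%) were above the reference on all arrays, near the 61.1% of all genes, and none was in the brightest 10%. TGFA, a ligand of EGFR, was the brightest, with 700, 858 and 994. The heparin-binding ligand HBEGF had 417, 352 and 347 and the ERBB3 ligand NRG1 had 210, 220 and 297. NRG4 (150 ± 20.6), BTC (138 ± 26.7) and EPGN (102 ± 14.7) were also above it. EREG (63.2, 41.5 and 74.7) fell below the limit in replicate 2, and EGF itself, at 42.3, 38.1 and 40.5, was below it on all 3 arrays.

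Among 55 measured receptor tyrosine kinases 24 (43.6%) were above the reference, a smaller share than the 61.1% of all genes. In the brightest 10%, to which 10.4% of genes belong, there were 7. MET, the receptor for hepatocyte growth factor, had 12565, 14528 and 14427, and AXL, the receptor for GAS6, had 12424, 10882 and 14011. Both are known as routes by which EGFR-mutant tumours tolerate EGFR inhibitors. ROR1, a WNT5A receptor that is otherwise used mainly in development (8862 ± 1208), the WNT co-receptor RYK (6052 ± 527) and the collagen receptor DDR1 (6006 ± 352) completed the brightest 10% together with EGFR and ERBB3. IGF1R (2944 ± 211), a receptor for insulin-like growth factors, was at the 87.3rd percentile, whereas the insulin receptor INSR (29.0, 27.2 and 23.4) was below the reference on all arrays. The ephrin receptors EPHB4 (996 ± 74.5) and EPHA2 (947 ± 178) and the MET relative MST1R (558 ± 99.6) had intermediate signals. PTK7, a WNT co-receptor, had 478, 733 and 755, lowest in replicate 1. The kinases that are activated by fusion in other lung adenocarcinomas were dim: ALK at 23.3 ± 3.50, ROS1 at 9.66 ± 1.58, RET at 38.1 ± 2.82, NTRK2 at 8.42 ± 0.451 and NTRK3 at 12.6 ± 3.24 were above the reference on no array. FGFR1 (53.0, 58.0 and 49.4) missed the limit in replicate 3 only, and KIT and KDR lay below the 3rd percentile.

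**Figure D4:**
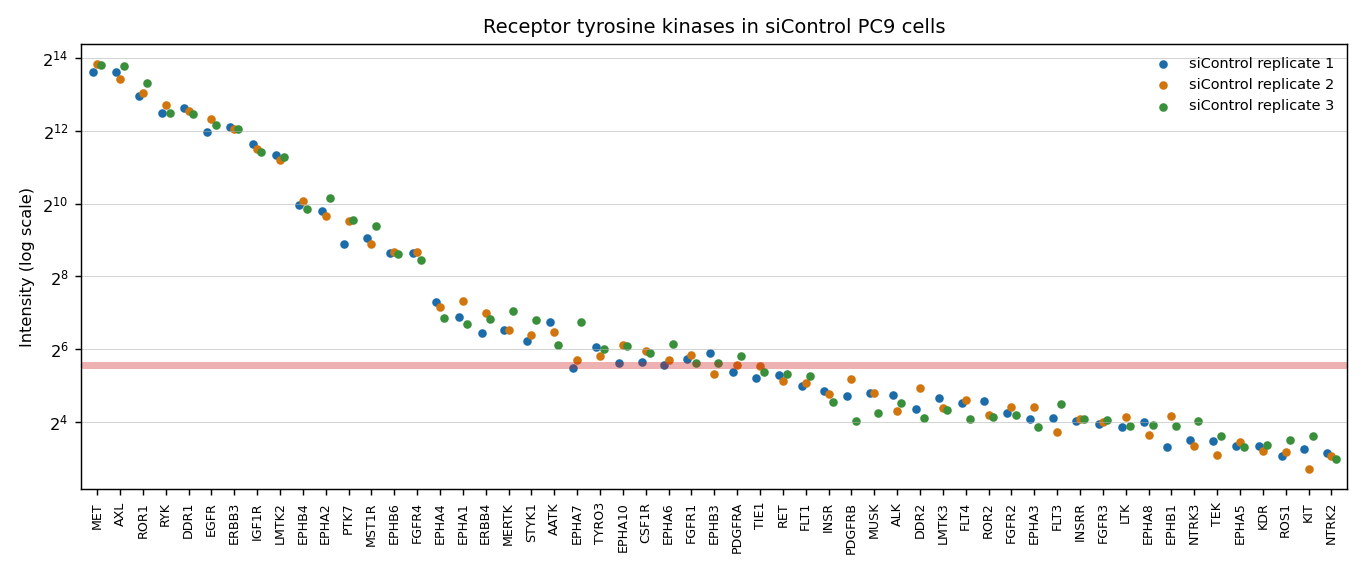
Intensity (vertical axis, log scale) of the 55 measured receptor tyrosine kinases on the 3 siControl arrays (coloured points), ordered by mean signal; the red band spans the reference limits. From MET down to LMTK2 all points lie far above the band, and the points of each gene lie close together compared with the distance from the band.

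Other receptors added to this picture. Of 43 cytokine and TNF family receptors 34 were above the reference, against 61.1% of all genes. TNFRSF12A, the receptor for the cytokine TWEAK, was the brightest (38168, 30936 and 41262), and TNFRSF21, a death receptor (11249 ± 439), IL6ST, the shared signal chain of the interleukin-6 family (4718 ± 219), and TGFBR2 (4579 ± 778) were in the brightest 10%. Of 39 nuclear receptors 22 (56.4%) were above, near the 61.1% of all genes, and none was in the brightest 10%. The orphan receptors NR2C2 (2684 ± 491) and NR2F6 (2435 ± 444), the vitamin D receptor VDR (2008, 2134 and 3029) and the glucocorticoid receptor NR3C1 (1908 ± 294) led this family, and the fat-sensing PPARG stood at 1109 ± 153. The sex steroid receptors ESR1 (20.1 ± 4.07) and PGR (11.1 ± 0.973) were not above the reference on any array.

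Of 28 surface proteins used as targets of antibodies or cell therapy, 21 were above the reference and 8 in the brightest 10%, with EPCAM, MET, ROR1, EGFR and ERBB3 among them. LY6E, a membrane-anchored protein, gave 37488 ± 4713, the carcinoembryonic antigens CEACAM6 and CEACAM5 gave 30212 ± 2747 and 1076 ± 73.3, and tissue factor F3 gave 4654 ± 285. CD47, which inhibits uptake by macrophages, was at 2933 ± 274 and the B7 family member CD276 at 802 ± 45.2. CD274, which encodes PD-L1, had 115, 190 and 140, and NECTIN4 had 78.0, 108 and 165, so both were above the reference but near the median of all genes. MSLN was at 129 ± 9.47, and CD70 (7.85 ± 1.30), GPC3 and CLDN6 were below the reference. For antigen presentation, 17 of 18 genes were above it. B2M, the light chain of class I molecules, gave 29486 ± 2654 and HLA-C 6358 ± 747, although probes for class I genes can read their close relatives. The peptide transporter TAP1 (172, 155 and 109) was near the median of all genes, and NLRC5, the activator of class I genes, was below the reference (15.1 ± 1.39).

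In the RAS-ERK pathway, which carries the EGFR signal to the nucleus, 26 of 30 measured genes were above the reference. That was 86.7%, against 61.1% of all genes. In the brightest 10%, to which 10.4% of genes belong, there were 5, and the median lay at the 79.5th percentile. ERK1, encoded by MAPK3, had 16093, 14238 and 16515, the adaptor SHC1 10694, 10211 and 11000, and the kinase MAP2K2 8692, 9001 and 9801. The phosphatase PTPN11 (7130 ± 557) and the adaptor GRB2 (6548 ± 553), which link receptors to RAS, were also in the brightest 10%. HRAS gave 208 ± 54.1. The genes that ERK induces, some of which feed back on it, were uneven: DUSP4 (3841 ± 344), ETV5, ETV4 (2204), DUSP6 (1762 ± 127) and SPRY1 (1488) stood between the 80.6th and 89.4th percentile, whereas SPRY2 (124 ± 16.7) and SPRY4 (86.0 ± 4.55) were below the median of all genes. In the PI3K-AKT-mTOR pathway 18 of 20 (90%) were above the reference, against 61.1% of all genes. They were led by the GTPase RHEB (8383 ± 792) and its inhibitor TSC1 (6616 ± 1099). AKT2 (5736 ± 623) and AKT1 (1998 ± 233), PIK3CB (1763 ± 198) and MTOR (543 ± 108) were above the reference as well. DEPTOR, an mTOR inhibitor, was above on no array (29.4 ± 12.7).

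The MYC family was represented by MYC itself, a transcription factor of growth, with 5162, 6726 and 8029 (6639 ± 1436, 93.1st percentile). Its replicates spread more than those of its partner MAX, which had 3779, 3806 and 3576. MYCL (25.8 ± 4.82) and MYCN (15.0 ± 2.89) were above the reference on no array. Among 27 lung cancer oncogenes 17 (63.0%) were above the reference, near the 61.1% of all genes, and 9 were in the brightest 10%. Besides MET, MYC and EGFR the brightest were the SRC family kinase YES1 (15948 ± 866), CDK4 (14260 ± 736), cyclin D1 CCND1 (12841, 12887 and 15769), beta-catenin CTNNB1 (12137 ± 439), NFE2L2 (8023 ± 521) and the adaptor CRKL (5523). The lineage oncogene NKX2-1 and TERT, the catalytic subunit of telomerase (46.5, 47.7 and 42.6), were above the reference on 1 array each.

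Among 34 tumour suppressors 32 (94.1%) were above the reference, against 61.1% of all genes. CDKN2A, which encodes the cell cycle inhibitors p16 and p14ARF from shared exons, was in the brightest 10% and had 22722, 15766 and 19052, and its neighbour CDKN2B had 207 ± 18.1. The redox sensor KEAP1 (3399 ± 387), RB1 (2162 ± 226), the kinase STK11 (1422, 1478 and 1477) and the chromatin remodeller SMARCA4 (1257, 1266 and 1271) were all above it, and RASSF1 (42.4 ± 5.58) and DLC1 (30.5) were above on no array. RNA level does not show whether a suppressor is mutated. Of the cyclins and kinases of the G1 phase, 22 of 23 were above the reference, and CCND2 (40.4 ± 8.47) was not, in contrast to CCND1. All 27 proliferation genes were above it and 19 were in the brightest 10%, with a median at the 92.8th percentile. The mitotic kinase PLK1 had 44698, 47416 and 46792, AURKA 16848 ± 88.0 and the proliferation antigen MKI67 6993 ± 377, and MCM6 was lowest at 349 ± 44.9.

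In the BCL2 family, which sets the threshold of apoptosis, 15 of 19 (78.9%) were above the reference, against 61.1% of all genes. The survival proteins MCL1 (9117, 9678 and 9528) and BCL2L1 (2990, 2641 and 1653) and the pore former BAX (6659 ± 882) were bright. BCL2L1 was lowest in replicate 3. BCL2L11, which encodes BIM, a killer protein that rises when EGFR is inhibited, had 789, 763 and 637. BCL2 itself had 75.4, 34.7 and 63.1 and was below the limit in replicate 2.

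Glycolysis enzymes were bright in the forms used by most tissues. Of 28 listed and measured, 19 (67.9%) were above the reference, against 61.1% of all genes, and 11 were in the brightest 10%. Besides GAPDH, ALDOA, ENO1 and LDHA, these were PKM (73034 ± 2407), LDHB (51510 ± 479), PFKP (32064 ± 3875), TPI1 (28073 ± 703), GPI (22193 ± 607), PGAM1 (12128 ± 955) and PGK1 (11582 ± 857). The hexokinases HK1 (2555, 2725 and 2825) and HKDC1 (2192, 2100 and 2688) were above the reference, and HK2 was dimmer (99.1, 125 and 130). Forms used in testis, such as PGK2 and GAPDHS, and the muscle enolase ENO3 were above it on no array. Glucose enters through SLC2A1, which had 30675, 28413 and 34551. SLC2A3 and SLC2A14, close copies whose probes may read each other, had 997 ± 116 and 1233 ± 123. Of 20 measured glucose and monocarboxylate transporters 12 (60%) were above the reference, near the 61.1% of all genes.

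The citric acid cycle was represented by 21 of 23 genes above the reference, with MDH2 (30932 ± 1209), citrate synthase CS (30106 ± 1345) and OGDH (11966 ± 526) among 10 in the brightest 10%, and only OGDHL and the testis form PDHA2 below. All 32 complex I subunits measured were above it, from NDUFS6 (26945 ± 1468) down to NDUFS7 (92.7, 56.0 and 77.1), and 37 of 39 genes of complexes III to V, where COX8A had 75932 ± 3054. The pentose phosphate enzyme TKT had 52997 ± 3595 and PGD 8231 ± 988.

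Lipid synthesis was bright in both branches. Of 19 fatty acid genes 16 were above the reference, led by the desaturase FADS2 (64435, 70022 and 72067), the desaturase SCD (31834, 35655 and 27962), the elongase ELOVL5 (30430 ± 1118) and the citrate lyase ACLY (18362 ± 493). Fatty acid synthase FASN had 8119 ± 488. Of 23 cholesterol genes 22 were above it with a median at the 86.1st percentile. The methylsterol oxidase MSMO1 (70953 ± 3098) and the reductase DHCR7 (46313 ± 1183) were the brightest of them, and the regulators SREBF1 and SREBF2 had 4666 ± 779 and 4531 ± 713.

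Serine and one-carbon enzymes included 9 of 23 in the brightest 10%. Mitochondrial SHMT2 had 28043, 26832 and 29936, and the enzymes that make serine from a glycolytic intermediate, PSAT1 and PHGDH, had 17612 ± 2559 and 10084 ± 291. GLDC, which breaks glycine down, was above the reference on no array (40.3 ± 3.66). Asparagine synthetase ASNS was at 594 ± 76.6 and glutamine synthetase GLUL at 11201 ± 392. The amino acid transporters were divided, with 11 of 26 (42.3%) above the reference on all arrays, against 61.1% of all genes. A further 11 were above it on no array, and 6 were in the brightest 10%, to which 10.4% of genes belong. The heavy chain SLC3A2 had 58908, 54738 and 52313, and its light chains SLC7A5 for large neutral amino acids and SLC7A11 for cystine had 36242 ± 3648 and 28520 ± 3164.

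The genes that NFE2L2, the NRF2 factor, can induce were among the brightest lists, with 30 of 31 above the reference, 23 in the brightest 10% and a median at the 95.6th percentile. The aldo-keto reductases AKR1C3 (104713, 101124 and 90761), AKR1C1 (73873, 78396 and 71322) and AKR1C2 (49306, 53641 and 45808) are nearly identical in sequence, so that their separate signals are uncertain. The ferritin light chain FTL (87792 ± 2120), glutathione transferase GSTP1 (83437 ± 5130), thioredoxin TXN (81961 ± 4003), its reductase TXNRD1 (45401 ± 4150), glutathione peroxidase GPX2 (40405 ± 4123) and the quinone reductase NQO1 (34578, 38055 and 38752) were also bright. Not all targets were: haem oxygenase HMOX1 had 104, 108 and 85.3, below the median of all genes, and GSTA1 was below the reference (16.9 ± 2.33). Aldehyde dehydrogenases showed a related pattern, with ALDH3A1 at 52484, 43565 and 43409 and ALDH1A3 at 11740 ± 1345, while ALDH1A1, a marker of stem-like cells in some tumours, had 105, 50.7 and 75.9. Of 52 cytochrome P450 genes 19 (36.5%) were above the reference, against 61.1% of all genes. CYP4F11, a fatty acid hydroxylase, was at 13364 ± 378 and the sterol enzyme CYP51A1 at 4174. CYP1B1, which activates carcinogens, was at 1032 ± 84.4. CYP1A1 (22.7 ± 1.88) and the liver enzyme CYP3A4 (14.5 ± 3.51) were above the reference on no array.

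The study concerns N6-methyladenosine (m6A), a methyl mark on RNA that writers set, erasers remove and readers bind. ALKBH5, the eraser that the study depletes elsewhere, had 2815, 3308 and 2361 in these control cells, at the 86.9th percentile, highest in replicate 2. FTO, the other known m6A eraser, had 7664, 6598 and 7147, at the 93.6th percentile. Of the other AlkB family members that carried a symbol here, ALKBH6 (1195), ALKBH1 (1087) and ALKBH2 (757) were above the reference, ALKBH7 and ALKBH4 were nearer to it at 98.3 and 66.6, and ALKBH8, a tRNA-modifying enzyme, fell below the limit in replicate 1 (45.0, 48.7 and 80.1).

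All 14 measured writers and their partners were above the reference, with 3 in the brightest 10% and a median at the 78.2nd percentile. The catalytic pair METTL3 and METTL14 had 1071, 948 and 1223, and 641, 690 and 416. METTL14 was lowest in replicate 3. The subunit WTAP, which anchors this pair, had 1372, 1661 and 1661, and the associated proteins ZC3H13 (7257 ± 769) and CBLL1 (8906 ± 656) were in the brightest 10% with TRMT112 (9191 ± 192), a partner of several methyltransferases. METTL16 (617 ± 148), PCIF1, which methylates the first nucleotide after the cap (1397 ± 101), and METTL5, which methylates ribosomal RNA (1375 ± 161), were above it, and ZCCHC4, the other ribosomal RNA enzyme, was lowest at 219 ± 28.3. The paper's list of m6A genes holds another, far dimmer entry for METTL16 and for ZC3H13. In control cells the mean of that METTL16 entry lay below the reference limits, and the values here are those of the brighter entries.

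Readers were the brightest of the m6A lists, with 15 of 15 above the reference, 11 in the brightest 10% and a median at the 93.5th percentile. IGF2BP2, an mRNA-stabilising protein, had 11184, 9067 and 9971. Its relatives IGF2BP3 and IGF2BP1, which are mainly fetal and return in tumours, had 4623, 4935 and 5240, and 3188, 3014 and 3786. All 3 thus stood between the 88.3rd and 95.2nd percentile. HNRNPC (55198 ± 1426) and HNRNPA2B1 (40462 ± 3221), nuclear RNA-binding proteins, led the list, the cytoplasmic YTH readers YTHDF3 and YTHDF1 had 13827 ± 1881 and 4101 ± 466, and the nuclear YTHDC1 was lowest of the 15 readers that carried a symbol here, with 1085, 1550 and 1030. The paper's list of m6A genes also holds the reader YTHDC2, which was not among these 15. Its mean in control cells there was lower than that of YTHDC1.

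**Figure D5:**
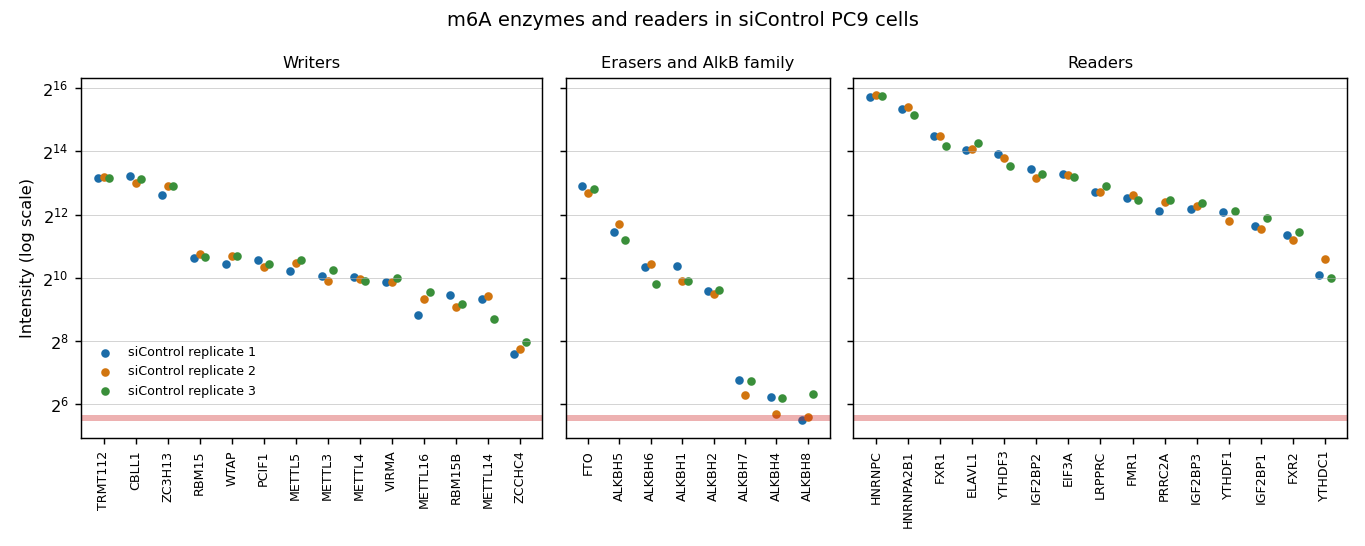
Intensity (vertical axis, log scale) of the 14 writers, 8 erasers and AlkB proteins and 15 readers on the 3 siControl arrays (coloured points); the red band spans the reference limits. All readers lie far above the band, as do ALKBH5 and FTO, and only ALKBH8 has points within or below it.

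Enzymes and readers of other RNA marks were nearly all above the reference. In the brightest 10% were 2 of 10 genes of 5-methylcytosine, 2 of 15 of pseudouridine, 0 of 35 of tRNA methylation and 3 of 23 of cap and ribose methylation, beside 10.4% of all genes. For 5-methylcytosine 10 of 10 were above, with the readers YBX1 (72427 ± 3144) and ALYREF (21119 ± 928) far brighter on the array than the enzymes, of which NSUN2 had 3038, 3244 and 2920 and TRDMT1 95.9 ± 23.5. All 15 pseudouridine genes were above, led by the small nucleolar protein NOP10 (18425 ± 2028), with the stand-alone synthases PUS7 at 560 ± 79.0 and PUS1 at 317 ± 72.2. Of 35 tRNA enzymes 33 were above; TRMT6, a subunit of the N1-methyladenosine enzyme, had 3221 ± 175, and TRMT9B was above on no array (34.5 ± 1.71). All 23 genes of cap, 7-methylguanosine and ribose methylation were above, with fibrillarin FBL at 22083 ± 995, the RNA acetyltransferase NAT10 at 2331 ± 151 and METTL1 at 250 ± 65.6.

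Deaminases differed from the other lists of this class and lay near all genes. Above the reference were 9 of 16 (56.25%), against 61.1% of all genes, and the median lay at the 51.2nd percentile against 53.0. ADAR, which turns adenosine into inosine, had 741, 1050 and 680 and ADARB1 129, 97.6 and 176, while ADARB2 was below the reference (15.4 ± 1.87). The cytidine deaminases APOBEC3C (27275 ± 3353) and APOBEC3B (5349, 6324 and 6536) were in the brightest 10%, and APOBEC3A, whose sequence resembles that of APOBEC3B, had 100 ± 8.52. APOBEC1, the editor of intestinal apolipoprotein B mRNA, was at 9.56 ± 0.705, while RBM47, a cofactor of that editing, was at 3111 ± 264.

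The 3 arrays resembled each other closely in most of these genes. Among the 10802 genes above the reference the median SD was 0.16 on the log2 scale and the 95th percentile 0.39, and 137 (1.27%) had an SD over 0.5. The SD became smaller with signal, from a median of 0.22 in signal class 4 to 0.10 in class 10. In 100 genes (0.926%) the highest array exceeded the lowest more than 2-fold. Of the 100 most variable genes, replicate 3 stood apart in 49, replicate 1 in 35 and replicate 2 in 16, and over all genes above the reference it was replicate 3 in 38.2%, replicate 1 in 32.5% and replicate 2 in 29.3%. BBS4, a subunit of the ciliary BBSome, was the most variable, with 235, 239 and 83.0. The zinc finger gene ZNF547 (156, 155 and 56.4), TUT4, which adds uridines to RNA (283, 313 and 134), and RHOT1, which moves mitochondria along microtubules (1074, 1183 and 510), were likewise low in replicate 3 only. CPOX, an enzyme of haem synthesis, had 669, 405 and 221, and MICU2, a regulator of the mitochondrial calcium uniporter, 119, 184 and 61.6. RALA, a RAS-related GTPase, was low in replicate 1 instead, with 370, 819 and 903, and the proline-degrading enzyme ALDH4A1 was high there (251, 135 and 101).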

How the data were processed

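Labelled cDNA from total RNA was hybridised to human Clariom S arrays, and groups and replicate numbers came from the sample titles. The authors deposited linear intensities, with 1 value for a cluster on each array. The submitters' processing notes name RMA, Affymetrix Expression Console and hg38, the study's methods name an analysis tool of the array provider, and the step that made the final scale is not stated. RMA draws the arrays towards a common distribution, so differences of total RNA per cell are not visible.

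Intensities were converted to log2 without a pseudocount or further normalization (pandas 2.3.3, numpy 2.4.6). Control probe sets (2903) were left out. The platform annotation gave 3739 clusters no symbol, which are unnamed here, and a gene with more than 1 cluster (20 genes) was represented by its brightest. No test was made: values are mean ± SD over 3 arrays, percentiles, and counts above the olfactory reference. The number of arrays limits the precision. The percentile and reference steps were checked on simulated data, and the motif step was not part of that check. Promoters and coordinates came from RefSeq (GRCh38.p14), and the first promoter entry listed for a gene was used. Protein features that had been planned were not analysed here.

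The members and the 58 gene lists were chosen with earlier results of these data known. The genes named are ALKBH5, the 30 brightest, members of lists of up to 16 genes, the 6 highest and 4 lowest of longer lists, members within 5 percentile points of the reference limit, kinases, RAS-ERK, MYC, oncogene and suppressor genes, and the 12 most variable genes, from which a selection is printed. Other members of the lists and the neighbours of EGFR were named after their values were seen.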

Additional observations from a re-analysis of the deposited data

How the results depend on the processing

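The count of 10802 genes above the reference was 9725 with the 99th percentile of the olfactory genes as the limit, 11542 with the 90th, 9322 with genes restricted to other organs as the reference, 11282 when the mean had to exceed the mean limit, 10806 after quantile normalization, 10802 after centring of the arrays and 10799 with the dimmest cluster of each gene. It was 10856 to 11100 when 1 siControl replicate was left out. With the negative control probe sets of the array as the reference, an alternative chosen after seeing the data, the limits were 210, 134 and 179 and the count was 7825, so 23 of 25 epithelial genes in place of 25, without MUC1 and PKP3, and 8 of 25 mesenchymal genes in place of 16, without CDH2 and FN1, were above it, and ERBB4, HMOX1, SFTPD, CD274 and TAP1 were not. Of the 30 brightest genes, 29 to 30 remained under each alternative tried. Of 58 lists, 39 had a median over the 50th percentile, 36 when ranked among named clusters and 38 to 39 with 1 replicate left out, and no list median moved by more than 3.50 points. The brightest of 10 classes exceeded the dimmest in CpG-rich promoters by 55.2 percentage points, by 50.4 with a ratio of 0.75, and the classes by reference level differed by 43.9. No paired analysis was possible because the values come from 1 group and from no test. The planned protein features were not run. Of 612 negative control probe sets, 77 (12.6%) exceeded the olfactory limit on all 3 arrays. A signal above the reference is therefore not by itself evidence of expression. Dim signals cannot be read as absence either, because no detection call was used.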

Other observations

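Genes that are normally confined to the germ line and return in tumours, the cancer-testis antigens, gave a mixed picture in the siControl cells. Of 26 measured, 8 (30.8%) were above the olfactory reference on all 3 arrays, against 61.1% of all genes. The median lay at the 23.3rd percentile. SSX5 had intensities of 2118, 2496 and 1828, and since SSX genes are close copies of each other this signal cannot be assigned to 1 of them. BRDT, a bromodomain protein of spermatocytes, had 409, 439 and 319 and MAGEA8 346, 292 and 194. The brightest genes of the SSX and MAGEA families stood outside the list and were picked after their values were seen. SSX2B had 30315, 27680 and 29104, at the 98.3rd percentile, MAGEA3 had 5499, 5784 and 5753, at the 92.2nd, and MAGEA6 (5161 ± 340) and MAGEA2 (2618 ± 393) lay at the 91.6th and 86.3rd, again among close copies. PRAME (24.8 ± 3.54, SD, n = 3), which many tumours express, was above the reference on no array.

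Among chromatin and DNA methylation enzymes 30 of 33 were above the reference, with the histone methyltransferase NSD3 at 8191 ± 534 in the brightest 10%. The maintenance DNA methyltransferase DNMT1 had 432, 344 and 386 and the de novo enzyme DNMT3A 1096, 883 and 1080, whereas DNMT3B (45.9 ± 4.99) passed the limit on 1 array. Of the enzymes that oxidise methylcytosine, TET2 had 124 ± 11.7 and TET1 60.7 ± 2.83.

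By chromosome, the share of genes above the reference was highest on chromosomes 16 and 15 (68.1% each of 744 and 520 genes) and lowest on chromosomes 21 (48.1% of 208), X (50.2% of 709) and 11 (51.8% of 1192), against 61.1% of all genes. These shares include the olfactory receptor genes that set the reference, 159 of which lie on chromosome 11. Without them the share on chromosome 11 was 59.6% of 1033 genes, against 62.2% of all 17338 genes, and chromosomes 21 (48.1%) and X (50.3%) stayed lowest.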
